A study of Rattus norvegicus with 44 samples.

Results

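The proteasome is the protein-degrading complex described here, through 46 genes measured in the dentate gyrus (DG), the granule cell layer region of the hippocampus, of 44 male F344 rats. The genes were taken by name, as every symbol of the families Psma to Psmg that is followed by a number, without the immunoproteasome subunits Psmb8, Psmb9 and Psmb10. All 46 had a mean of at least 5 normalised reads over the rats, out of 15598 genes that reached this mean and 18347 gene identifiers in all, and the lowest was Psmb11 with a mean of 12.8. No gene lay just below the minimum, and 3 further names of the families, Psma3, Psma8 and Psma6l, are not listed in the table, where RefSeq gives the listed Psma3l as a synonym of Psma3. Of the 46 genes, 7 encode the alpha ring of the core, 8 the beta ring, 6 the ATPases of the cap, 11 its other subunits, 6 activators or regulators and 7 assembly chaperones. The last, Psmc3ip, is a recombination cofactor that shares only the letters of the name, and Psmb11 is known as a subunit of the thymus.

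Each rat gave 1 library. Young rats (YNG, n = 10) were 6 months old and are listed by the authors with vehicle. The older rats began treatment by mouth at 12 months and were about 18 months old at the end, and received vehicle (AV, n = 12), 12 mg/kg ABT-263 (AA, n = 11) or 1.2 mg/kg dasatinib with 12 mg/kg quercetin (ADQ, n = 11). Both drug treatments are senolytics, meant to remove senescent cells, and were given in 8 cycles of 5 days ahead of behavioral tests, with a last round after them. The study asked how age and senolytic treatment alter DG transcription. The table holds normalised reads, that is, estimated reads divided by a size factor of the library, and the estimated depth was 10166556 to 24328321 reads per rat.

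Proteins tagged with ubiquitin are recognised by the cap, unfolded by its ring of ATPases and threaded into a barrel-shaped core, whose beta subunits Psmb5, Psmb6 and Psmb7 cut them. Assembly chaperones help to build the core and the cap, and activators such as Psme3 and Psme4 can open the core in place of the cap. In neurons the proteasome turns over synaptic proteins and is known to be needed for lasting synaptic change.

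Many proteasome genes were lower in the older rats than in YNG. At an unadjusted p below 0.05 (limma on log2 of value + 1, the study's own threshold), 23 of 46 genes were lower and 1 was higher in the older rats as a whole, as the mean of the 3 group means, where 16.7% of all genes tested were lower and 15.7% higher. After Benjamini-Hochberg adjustment over all genes, 17 were lower and 1 higher, against 8.23% of all genes lower and 6.65% higher. Without Psmb11, Psme3ip1 and Psmc3ip, 21 of 43 genes were lower and 1 higher. The median change of the 46 genes was -0.21 (log2), and that of all genes was 0.0039. In bulk tissue, fewer cells of a type and less RNA per cell cannot be told apart. The p-values measure the spread between rats. The adjusted counts moved with single rats: without V1, V2, V3, V4, V9 or V12, each a YNG rat left out in turn, 5 to 9 genes were lower past adjustment, and without YNG rat V11 there were 23.

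The number of these calls changed with some terms and scalings of the libraries. With the log2 total of the normalised values of each library as a term in the fit, 1 gene was lower (Psmb11) and none was higher, where 4.03% of all genes were lower and 5.59% higher. With the first principal component of all other genes as a term, 1 gene was lower and 3 were higher, where 3.21% of all genes were lower and 4.17% higher, and the median change was 0.04. Both terms were chosen after the data were seen. Both differ on the whole between YNG and the older groups, so that a fit with either cannot fully separate it from age. The median log2 total was 23.99 in YNG and 23.87 to 23.89 in the older groups. The ranges overlapped, with log2 totals of 23.87 to 24.29 in YNG and 23.79 to 24.18 in AV. The first component ran from -0.16 to 0.33 in YNG and from -0.18 to 0.34 in AV. The mean level of the 46 genes followed the first component across the 44 rats, with r = 0.94, and the log2 total with r = 0.76, as descriptions of values from the same libraries. Scaling every library to the same total left 15 lower and 3 higher genes, where 6.49% of all genes were lower and 31.8% higher, with the median of the 46 genes at -0.08 and that of all genes at 0.13.

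**Figure D1:**
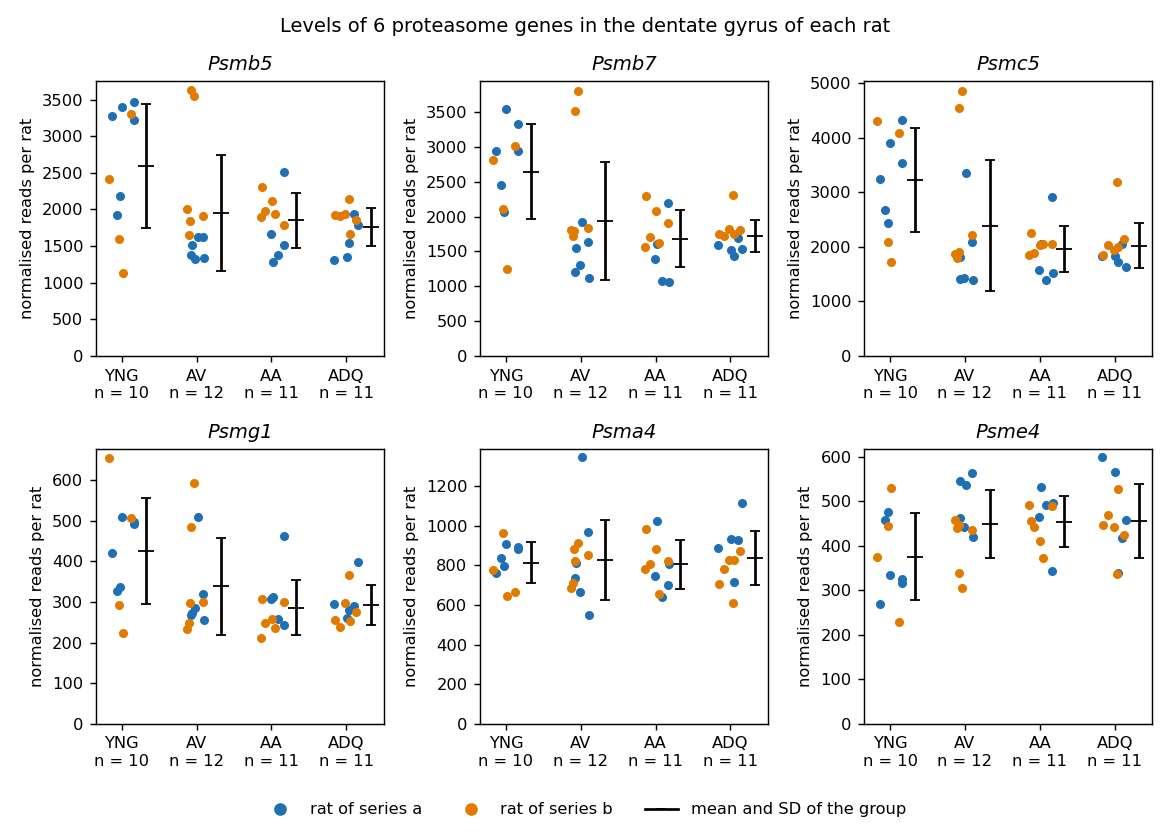
Normalised reads of 6 genes in each rat, by group, with points coloured by series (a split by rat name) and the mean and SD of each group beside them. Most YNG rats sit high for Psmb5, Psmb7, Psmc5 and Psmg1, and a pair of AV rats of series b sits as high. AV rat 3989 of series a is high for Psmc5 (3348) and Psmg1 (508.4) but not for Psmb5 or Psmb7. The medians of Psma4 stay between 804.1 and 828.4 and Psme4 goes the other way.

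In the beta ring, 5 of 8 genes were lower, where 16.7% of all genes were. Psmb7, which carries the trypsin-like activity, had 1245 to 3540 normalised reads in YNG (median 2873), 1113 to 3808 in AV (median 1756), 1055 to 2288 in AA (median 1620) and 1427 to 2317 in ADQ (median 1720). The ranges overlapped in every pair of groups, with YNG rat V11 lowest among the young and AV rat 4567 highest of all. The log2 change of Psmb7 in the older rats was -0.57 ± 0.14 (SE, adjusted p = 0.00983). By group it was -0.64 in AA (adjusted p = 0.037), -0.58 in ADQ (adjusted p = 0.0348) and -0.50 in AV (adjusted p = 0.0924).

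Psmb5, the subunit with chymotrypsin-like activity and the main target of bortezomib, had 1136 to 3469 normalised reads in YNG (median 2823), 1325 to 3630 in AV (median 1644), 1288 to 2514 in AA (median 1891) and 1304 to 2142 in ADQ (median 1851). The YNG values were spread widest and covered nearly the whole range of the older rats. Its change was -0.44 ± 0.14 (adjusted p = 0.033). Psmb6, the caspase-like subunit, had a median of 127.5 in YNG, with a lowest rat of 13.004 and a highest of 168.7, and of 72.7 in AV (22.5 to 180.5), and its change of -0.47 ± 0.27 did not pass (p = 0.0869). The structural subunits Psmb4 (-0.44, adjusted p = 0.0421) and Psmb1 (-0.40, adjusted p = 0.0239) were lower. Psmb3, with a change of 0.00 and a 95% interval of -0.23 to 0.23, and Psmb2, with 0.03 (-0.13 to 0.19), did not pass. Psmb11 fell by 0.73 ± 0.24 (adjusted p = 0.036) at a level of 7.60 to 25.2 in YNG and 1.399 to 29.6 in the older rats, where few reads stand behind each value.

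In the alpha ring, whose subunits form the gate of the core, 3 of 7 genes were lower and 1 of them passed adjustment. Of all genes, 16.7% were lower and 8.23% were lower past adjustment. Psma7 had a median of 2018 in YNG (1284 to 2505), 1349 in ADQ (1265 to 1711), 1390 in AA (1120 to 1757) and 1360 in AV (1032 to 2523). The older medians lay near the bottom of the YNG range. Its change was -0.40 ± 0.11 (adjusted p = 0.0135). Psma6 (-0.31, adjusted p = 0.103) and Psma1 (-0.23, adjusted p = 0.0501) passed only the unadjusted threshold. Psma4 did not pass, with medians of 816.4, 815.1, 804.1 and 828.4 in YNG, AV, AA and ADQ, a change of 0.0074 and an interval of -0.17 to 0.19.

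The ATPases of the cap held the highest share of lower genes, 5 of 6, each past adjustment, where 8.23% of all genes were lower past it. Psmc5 had 1718 to 4327 normalised reads in YNG (median 3391), 1387 to 4857 in AV (median 1887), 1391 to 2913 in AA (median 2040) and 1639 to 3194 in ADQ (median 1945). Every older median was near the lowest YNG value, while the highest AV rat, again 4567, exceeded every YNG rat. Its change of -0.61 ± 0.15 (adjusted p = 0.00993) was the largest of the core and cap genes after that of Psmb11. Psmc1 (-0.57, adjusted p = 0.0117), Psmc3 (-0.48, adjusted p = 0.013), Psmc2 (-0.34, adjusted p = 0.0476) and Psmc4 (-0.21, adjusted p = 0.0318) were lower. Psmc6, the remaining ATPase, had a change of -0.10 with an interval of -0.29 to 0.08. It was the least abundant of the 6, with a mean of 859 normalised reads. Of all genes with a mean of at least 1000, 27.7% were lower without adjustment.

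Of the 11 other cap subunits 7 were lower, 5 of them past adjustment, beside 16.7% and 8.23% of all genes. Psmd4, a receptor for ubiquitin chains, had medians of 1538 in YNG (998.3 to 2033), 1049 in ADQ (908.4 to 1443), 1054 in AA (892.2 to 1607) and 1043 in AV (931.8 to 2216). The groups overlapped, with the older medians close to the lowest young rat. Its change was -0.42 ± 0.11 (adjusted p = 0.0111). The scaffold subunits Psmd1 (-0.45, adjusted p = 0.0295) and Psmd2 (-0.25, adjusted p = 0.019) were lower, as were Psmd12 (-0.33, adjusted p = 0.0357) and Psmd3 (-0.24, adjusted p = 0.0359). Psmd7 and Psmd13 passed without adjustment only. Psmd14, the deubiquitinase of the cap, had a change of -0.20 (p = 0.0603). Psmd11 had 0.02, with an interval of -0.10 to 0.15.

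**Figure D2:**
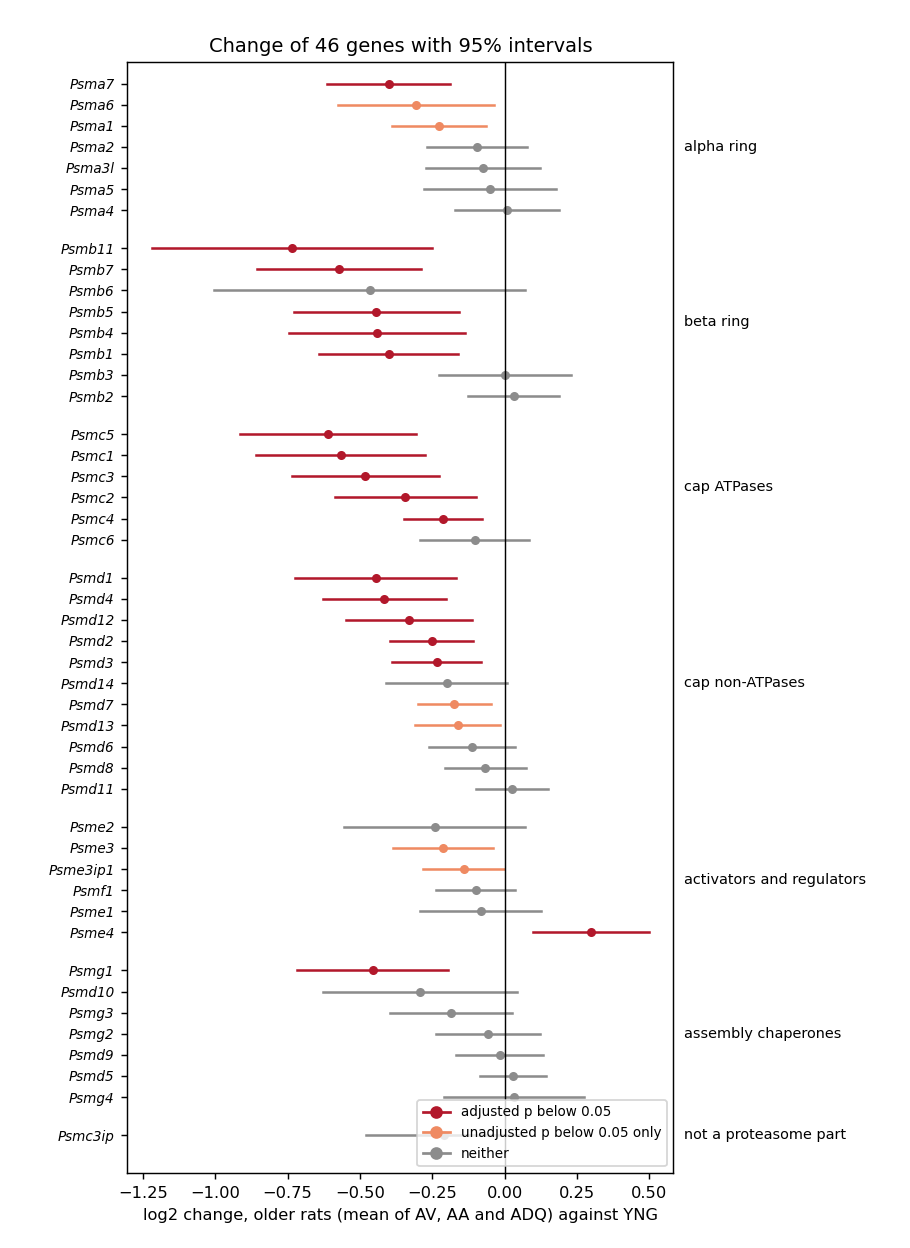
Log2 change in the older rats against YNG (x axis) with its 95% interval for each of the 46 genes, grouped by role and coloured by the test. The cap ATPases and most of the beta ring lie left of 0, the intervals of the assembly chaperones other than Psmg1 include 0, and Psme4 stands alone on the right.

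Among activators and regulators 2 of 6 genes were lower and 1 was higher, where 16.7% of all genes were lower and 15.7% higher. Psme4, the large activator known as PA200, had 228.6 to 530.2 normalised reads in YNG (median 355.0), 306.0 to 564.1 in AV (median 445.0), 342.8 to 531.6 in AA (median 463.8) and 335.6 to 599.2 in ADQ (median 447.3). The young rats were lower on the whole, but YNG rat V11 was at 530.2, within the top of the older range. Its change was 0.30 ± 0.099 (adjusted p = 0.0387), the only one of the 46 that passed upwards, and across the 44 rats its level ran against the mean of the other members (r = -0.69). Psme3, the nuclear activator, was lower without adjustment (-0.21, p = 0.016), and so was its interactor Psme3ip1 (-0.14, p = 0.0485), which is not itself an activator. Psme1 (-0.08) and Psme2 (-0.24), the activator pair induced by interferon, and the inhibitor Psmf1 (-0.10) did not pass.

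Of the 7 assembly chaperones 1 was lower, where 16.7% of all genes were. Psmg1, which helps to form the alpha ring, had a median of 455.8 in YNG (223.7 to 655.0), 280.1 in ADQ (237.6 to 397.8), 259.3 in AA (210.4 to 463.4) and 292.3 in AV (232.8 to 593.9), and its change was -0.46 ± 0.13 (adjusted p = 0.0204). Psmg3, another chaperone of the core, had a median of 307.6 in YNG, 276.0 in ADQ, 245.7 in AA and 269.8 in AV and did not pass, with a change of -0.18 (p = 0.0839, interval -0.40 to 0.03). Psmd10, the cap chaperone also known as gankyrin, did not pass either, with a change of -0.29 (p = 0.0871, interval -0.63 to 0.04). Psmg2, the partner of Psmg1, had a change of -0.06 (interval -0.24 to 0.12). Psmd5, a chaperone of the cap, had 0.03 (-0.09 to 0.14) and Psmd9 -0.02 (-0.17 to 0.13). Psmc3ip, which is no part of the proteasome, had -0.21 (p = 0.127).

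**Figure D3:**
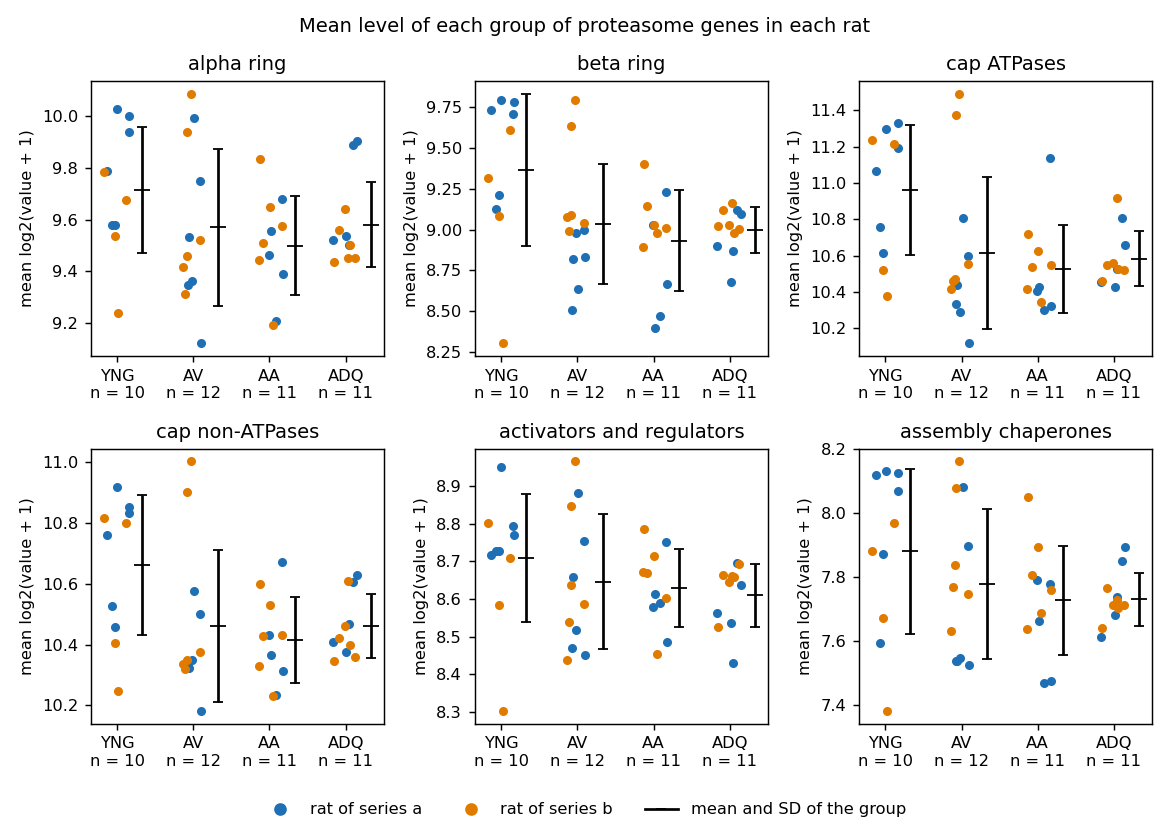
Mean log2(value + 1) of the genes of each role in each rat (y axis), by group, with series by colour and the mean and SD beside the points. YNG rat V11 is the lowest young rat in every panel, and in AV a pair of rats of series b stands apart at the top for the ATPases and the other cap subunits.

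The lower genes were mostly the more abundant ones. Of the 21 genes with a mean of at least 1000 normalised reads 18 were lower, where 27.7% of all genes of that abundance were lower. Of the other 25 genes 5 were lower, where 14% of genes below that mean were. These values are not corrected for gene length. The genes also moved together from rat to rat: the median correlation with the mean of the other members was 0.90 over 6 cap ATPases, 0.79 over 8 beta ring genes and 0.57 over 7 assembly chaperones, from values that share the library and its scaling. Within the groups these medians were 0.88, 0.78 and 0.60. Psmd11 (r = 0.13), Psmb11 (0.21) and Psmb2 (0.22) followed the others least, apart from Psme4.

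Each older group was set against the same 10 YNG rats, so the 3 comparisons share their controls. In AV 17 genes were lower and 1 was higher, where 10.7% of all genes were lower and 10.6% higher, and none was lower past adjustment (0.539% of all genes). In AA 24 were lower and 1 higher (14.1% of all genes lower, 12.6% higher), 10 of them lower past adjustment (2.31%). In ADQ 18 were lower and 1 higher (14.6% and 13.5%), 7 of them lower past adjustment (3.96%). The median change was -0.21 in AA and -0.19 in both AV and ADQ. The AV count was 11 when AV and YNG were fitted without the drug groups (8% of all genes). Past adjustment, the counts moved with single rats here too: in AV 14 genes were lower without AV rat 4567, 10 without AV rat 4572, 8 without V11 and 1 without V10, in AA 20 without V11 and none without any of 8 single rats (V1, V2, V3, V4, V9 and the AA rats 3984, 3988 and 3996), and in ADQ 15 without V11, 14 without V10 and none without V1, V2, V4, V9 or V12.

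None of the 46 genes passed between the older groups. In AA against AV, where 4.51% of all genes passed in either direction, the smallest p was 0.0887 (Psmb11, -0.48). In ADQ against AV, where 9.32% passed, it was 0.128 (Psmg4, -0.22), and in AA against ADQ, where 4.53% passed, 0.0522 (Psmd6, -0.17). The 95% interval of the difference lay within 0.5 on the log2 scale on either side of 0 for 38, 44 and 43 of the 46 genes, and differences smaller than these intervals were not detectable. The mean log2 level of the 46 genes was 9.35 ± 0.27 (SD) in AV, 9.28 ± 0.16 in AA and 9.32 ± 0.099 in ADQ, against 9.55 ± 0.27 in YNG. The AV rats therefore ranged from 9.03 to 9.91, wider than the ADQ rats, at 9.19 to 9.48.

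The rats were split by name into 2 series, a and b, which no label names as batches. Series a holds V1 to V6 and the rats up to 4011, and series b holds V9 to V12 and the rats from 4031. Series b is not 1 run of names: its AA and ADQ rats are 4031 to 4110 and its AV rats are 4566 to 4572. Within series b, AV therefore cannot be told apart from that run of names. In series a there were 6 rats each of YNG and AV and 5 each of AA and ADQ, and in series b 4 of YNG and 6 of each older group. Within series a alone 29 genes were lower and 1 higher in the older rats, where 20.5% of all genes were lower and 17.5% higher, with a median change of -0.31. Within series b alone none was lower and 2 were higher, where 3.39% of all genes were lower and 5.42% higher, with a median change of -0.03. In AV against YNG, 25 genes were lower in series a (18.3% of all genes) and none in series b (2.54%), where 3 were higher (3.77%). The test of the difference between series passed in 15 of 46 genes at an unadjusted p below 0.05 in the older rats together, where 20.3% of all genes passed, and in 20 genes for AV (21.8% of all genes), 15 for AA (17.3%) and 7 for ADQ (8.89%). Past adjustment it passed in 6 genes in the older rats together (4.19% of all genes), 6 for AV (4.47%) and 1 for AA (1.8%).

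Psmb5 shows where the series part. In series a it had 1932 to 3469 normalised reads in YNG and 1325 to 1631 in AV, with no overlap. The highest AA and ADQ rats of series a, 3985 at 2514 and 3994 at 1934, lay within that YNG range. In series b Psmb5 had 1136 to 3303 in YNG and 1657 to 3630 in AV, which overlap over most of their range. The change in the older rats was -0.87 in series a and 0.08 in series b (difference 0.95, adjusted p = 0.0207). Psmg1 did not part in this way, with -0.47 in series a and -0.41 in series b (p of the difference = 0.823). It did not pass in series b alone, where its YNG values of 223.7 to 655.0 covered the AV values of 232.8 to 593.9.

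**Figure D4:**
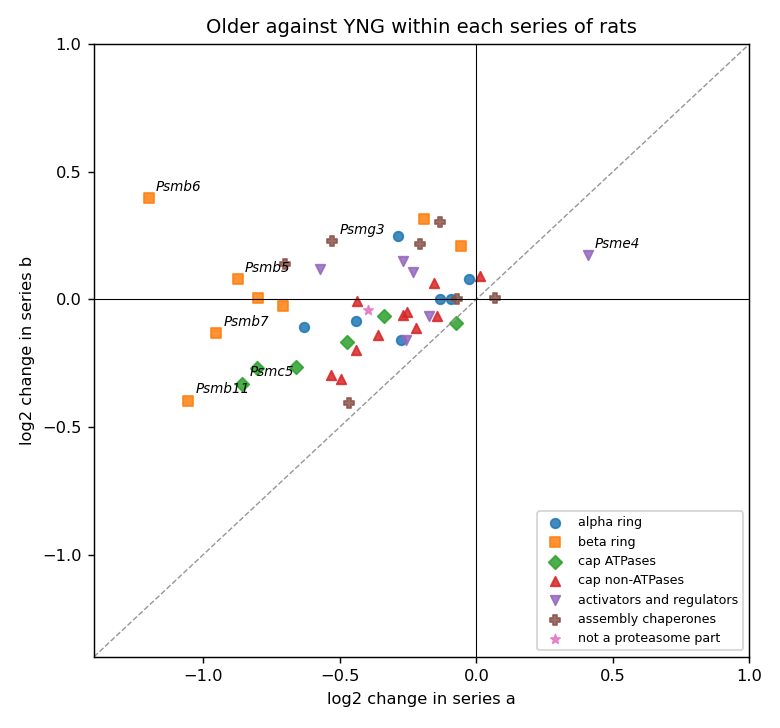
Log2 change in the older rats against YNG within series a (x axis) and series b (y axis) for the 46 genes, with marks by role and a dashed line where both are equal. Of the 46 genes 43 lie above the line, most of them left of 0 in series a and near 0 in series b.

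Depth differed between the young rats of the series. YNG rats V10 and V11 of series b had 10166556 and 11579449 estimated reads, the fewest of the young rats, and mean levels of the 46 genes of 9.30 and 8.98, while V9 and V12 had 16473474 and 16214816 and levels of 9.67 and 9.63. Depth and level did not run together in every young rat: V5 and V6 of series a had 18714618 and 17652907 reads and levels of 9.39 and 9.41. Over the 44 rats the mean level of the 46 genes followed the log2 estimated reads with r = 0.42, as a description. Without the 3 libraries under 12000000 reads (V10, V11 and an AA rat), a limit set after these values were seen, 29 genes were lower in the older rats (21.3% of all genes) and 26 in each of AV (16.6%), AA (18.5%) and ADQ (19.5%). The part of depth in these results was not tested further.

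**Figure D5:**
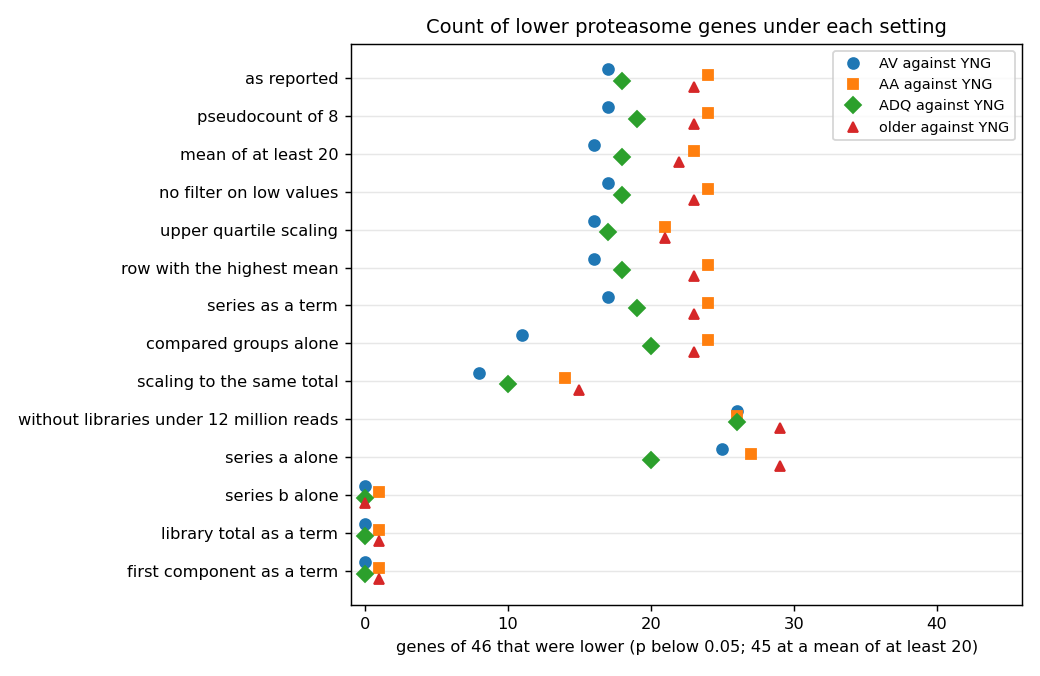
Number of the 46 genes that were lower than in YNG (x axis) under each setting (y axis), with 1 mark for each comparison. Counts stay between 8 and 29 under most settings and are 0 or 1 in series b alone and with the library total or the first component as a term.

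Some cell type markers passed in the older rats together, where 16.7% of all genes were lower, 15.7% higher and 32.4% either. Among granule cell markers, Prox1 and Dsp did not pass and Calb1 (-0.53, adjusted p = 0.00729) and C1ql2 (-0.42, p = 0.0142) were lower, and all 4 were well detected. Of the 4 oligodendrocyte genes 3 were higher, where 15.7% of all genes were, among them Mobp (0.38, p = 0.0194) and Mog (0.29, p = 0.0252). The endothelial gene Flt1 was higher too (0.78, adjusted p = 0.00796), while the other endothelial gene Cldn5 did not pass (0.31, p = 0.0793). The mean log2 level of the 4 oligodendrocyte markers ranged from 11.96 to 13.22 in YNG, 12.41 to 12.80 in ADQ, 12.22 to 13.66 in AA and 12.27 to 13.76 in AV. None of the 3 CA1, 3 CA3, 4 choroid plexus, 4 microglial, 3 astrocyte or 2 red blood cell markers passed in the older rats together. Single rats still differed widely in CA1 markers. Wfs1 ranged from 1298 to 10569 in YNG, 597.1 to 16786.5 in AV, 719.1 to 23420 in AA and 942.5 to 7217 in ADQ. AA rat 4107, highest for Wfs1, was lowest of its group for Prox1 (608.7), Dsp and C1ql2, but not for Calb1. The part of cell makeup in the proteasome values was not tested.

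Genes that work with the proteasome were read from lists chosen with earlier results known. Of 14 ubiquitin genes and shuttle factors, which charge ubiquitin or carry tagged proteins to the cap, 9 were lower and none higher, where 16.7% of all genes were lower and 15.7% higher, and 4 were lower past adjustment, where 8.23% of all genes were. The ubiquitin-activating enzyme Uba1 (-0.25, adjusted p = 0.0386), the segregase Vcp (-0.22, adjusted p = 0.0347) and its cofactor Nploc4 (-0.27, adjusted p = 0.0235) and Ubqln4 (-0.18, adjusted p = 0.0453) passed adjustment. Rps27a (-0.37) and Nsfl1c (-0.17) were among those that passed without it. Ubb (-0.01) and Ubqln2 (-0.01) did not pass.

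Of 8 partners of the complex, 2 were lower and 1 higher, where 16.7% of all genes were lower and 15.7% higher. Past adjustment 1 was lower and 1 higher, where 8.23% of all genes were lower and 6.65% higher. Adrm1, a ubiquitin receptor of the cap, was lower (-0.27, adjusted p = 0.0393), and so was the core chaperone Pomp (-0.38, p = 0.00747). Txnl1, a thioredoxin bound to the cap, was higher (0.18, adjusted p = 0.038). Of the 6 regulators of proteasome gene expression 1 was higher and 1 lower, beside the same 15.7% and 16.7% of all genes. Ddi2, the protease that activates the transcription factor encoded by Nfe2l1, had a median of 1401 in YNG (868.3 to 1988), 2186 in ADQ (1875 to 2335), 2123 in AA (1157 to 2642) and 2034 in AV (985.5 to 2363). Every ADQ rat lay above the YNG median, and the change in the older rats was 0.46 ± 0.12 (adjusted p = 0.0111). Nfe2l1 itself had a change of -0.05 and Nfe2l2 of 0.06, and Mafg was lower (-0.25, p = 0.0248).

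The immunoproteasome subunits, which replace Psmb5, Psmb6 and Psmb7 under interferon, were counted apart. In the older rats together Psmb10 was lower (-0.30, p = 0.0394, adjusted p = 0.132) and Psmb8 (-0.11) and Psmb9 (-0.04) did not pass. By group, 1 of the 3 was higher and none lower in AV than in YNG, where 10.6% of all genes were higher. In AA against YNG none passed, and in ADQ against YNG 1 was lower, where 14.6% of all genes were. None of the 3 passed adjustment against YNG. Between the older groups, Psmb9 was lower in AA than in AV (-0.57, p = 0.00443) and in ADQ than in AV (-0.77, p = 0.000195), and Psmb8 was lower in ADQ than in AV (-0.67, p = 0.00249) and in AA than in AV (-0.48, p = 0.0276). Psmb9 had a median of 51.3 in YNG (28.6 to 81.0), 37.1 in ADQ (24.8 to 60.3), 46.2 in AA (28.02 to 65.7) and 68.3 in AV (34.97 to 148.7). The ranges of all groups overlapped. None of the differences between the older groups passed adjustment, with a smallest adjusted p of 0.134. Of all genes, 3.1% were lower in AA and 5.9% in ADQ than in AV. Microglial markers were lower in the same comparisons: of 4, Csf1r and Cx3cr1 in AA, and these and P2ry12 in ADQ. The mean log2 level of the 4 ranged from 8.39 to 8.90 in ADQ, 8.27 to 9.40 in AA and 8.54 to 9.601 in AV. In ADQ both endothelial markers, both red blood cell markers, 2 of 4 oligodendrocyte markers and 1 of 4 choroid plexus markers were lower than in AV, and the astrocyte gene Gfap, 1 of 3, was lower in both drug groups (-0.49 in AA and -0.57 in ADQ). None of these markers passed adjustment, and their part in the values of Psmb8 and Psmb9 was not tested.

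Promoters of 41 of the 46 genes were read from RefSeq (GRCr8, 250 bases before to 50 after the start). The core of the antioxidant response element, TGACNNNGC on either strand, to which the factors of Nfe2l1 and Nfe2l2 bind, was found in 8 of 41 (19.5%) and in 12.1% of all 33469 promoters of that length. CCAAT was found in 21 (51.2%, against 37.5%) and GGGCGG in 30 (73.2%, against 33.1%). The 33469 promoters were not limited to the genes tested here, while all 41 belong to tested genes. A match is a run of letters and not a site shown to be bound. The next 4 promoters differ in the change of their gene and in the element: Psmb5 was lower, Psme4 higher and Psmb2 not called, each with the element in capitals (on the minus strand of the gene in Psme4), and Psmc5 was lower and has none.

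Psmb5, chr15:32047330-32047629, minus strand: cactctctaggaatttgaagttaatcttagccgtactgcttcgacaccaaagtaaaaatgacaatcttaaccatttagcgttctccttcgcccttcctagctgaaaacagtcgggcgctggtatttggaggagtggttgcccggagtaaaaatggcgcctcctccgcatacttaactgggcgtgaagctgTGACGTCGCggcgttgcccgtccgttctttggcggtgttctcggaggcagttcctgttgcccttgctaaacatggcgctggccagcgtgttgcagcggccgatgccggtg
Psme4, chr14:108706393-108706692, plus strand: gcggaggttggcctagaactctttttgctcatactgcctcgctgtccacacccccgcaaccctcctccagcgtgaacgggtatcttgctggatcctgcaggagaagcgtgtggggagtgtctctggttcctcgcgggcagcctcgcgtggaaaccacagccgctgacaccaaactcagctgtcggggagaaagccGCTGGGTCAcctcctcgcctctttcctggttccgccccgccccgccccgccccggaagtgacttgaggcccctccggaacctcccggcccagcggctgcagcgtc
Psmb2, chr5:144254808-144255107, plus strand: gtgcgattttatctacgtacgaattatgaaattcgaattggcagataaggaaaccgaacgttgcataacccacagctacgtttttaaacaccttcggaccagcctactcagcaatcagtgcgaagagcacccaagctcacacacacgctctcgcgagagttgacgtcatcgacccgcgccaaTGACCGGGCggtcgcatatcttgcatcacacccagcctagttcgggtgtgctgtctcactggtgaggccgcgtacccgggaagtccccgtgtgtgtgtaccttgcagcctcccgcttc
Psmc5, chr10:91687303-91687602, plus strand: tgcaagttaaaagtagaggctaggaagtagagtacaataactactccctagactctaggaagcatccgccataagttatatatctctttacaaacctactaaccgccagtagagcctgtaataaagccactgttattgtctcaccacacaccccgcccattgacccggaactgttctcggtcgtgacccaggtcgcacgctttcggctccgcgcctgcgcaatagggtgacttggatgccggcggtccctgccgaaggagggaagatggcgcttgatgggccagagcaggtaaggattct

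The element began 60 bases before the start in Psmb5, 55 in Psme4 and 68 in Psmb2. It was present in 3 of 14 promoters of genes that were lower past adjustment and in 4 of 26 of genes that did not pass adjustment.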

How the data were processed

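Poly(A) RNA from the DG of 1 hemisphere per rat was sequenced on the Ion platform. Per the labels and methods, the authors aligned reads to rn6 with STAR 2.5.3a in Partek, divided them by median ratio size factors and tested with DESeq2. The annotation and quantifier are not given in the sources used here. The deposited table holds these signal values. Within a tolerance of 0.05, 79.2 to 84.2% of low values were whole reads, so no count model was used.

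Of 24694 rows, those of 1 gene were summed (8 members had several), and 15598 genes with a mean of at least 5 were fitted in limma 3.58.1 (R 4.3.3) on log2(value + 1), empirical Bayes with a trend, 44 rats in 4 groups, two-sided, with Benjamini-Hochberg adjustment. The older rats' treatments came from the authors' attribute table by rat name. The age class of every rat, young or older, matched its label. The labels give the older rats as 12 months, their age when treatment began. Fold changes on this scale understate those of low genes. Series were read from rat names and tested as an interaction. The fit was also run on simulated data with noise drawn separately for each gene. Those data lack the movement that genes share from rat to rat.

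Named were the 3 members of each role with the smallest p, the one with the largest, Psmb5, Psmb6 and Psmb7, all adjusted calls, a few further members after their values were seen (such as Psmg2, Psmd5, Psmd14, Psmb2 and Psmf1), and pathway genes that passed, of which a few are not reported here. Members and lists were chosen with earlier results of these data known. Alternatives were pseudocount, filters, scaling, row choice, groups fitted alone, series, and each rat left out in turn. The library total, first component and depth limit were added after seeing the data.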

Additional observations from a re-analysis of the deposited data

Results flagged for a closer look

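In 6 proteasome genes the change in the older rats differed between series a and series b past an adjusted p of 0.05 (limma interaction), as it did in 653 of all 15598 genes. The change in series b minus that in series a, on the log2 scale, was 0.95 for Psmb5, 1.60 for Psmb6, 0.82 for Psmb7, 0.43 for Psmd3, 0.42 for Psmf1 and 0.76 for Psmg3. In AV against YNG it was 0.93 for Psmb1, 1.198 for Psmb5, 1.89 for Psmb6, 1.05 for Psmb7, 0.58 for Psmd3 and 0.75 for Psmg3, where 697 of all genes passed, and in AA against YNG it was 0.87 for Psmg3, where 280 did. No label says what separates the series, and series b holds 4 YNG rats, of which V10 and V11 had the lowest depth of the young.

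Among the 46 genes in the 10 YNG rats, 1 value stood apart from the others by Dixon's criterion: Psme1 in rat V11 was at 278.6 normalised reads, with the next rat at 474.9. Chance alone gives about 1 such value in 20 groups.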

How the results depend on the processing

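The counts of genes past an unadjusted p of 0.05, in either direction, were 18 in AV, 25 in AA, 19 in ADQ and 24 in the older rats against YNG, and 0 between the older groups. They stayed within 1.5 times of this for the comparisons with YNG with a pseudocount of 8, a mean of at least 20, no filter, upper quartile scaling, the row with the highest mean, series as a term, the compared groups alone, series a alone and without libraries under 12000000 reads. Scaling to the same total gave 10 in AV and 12 in ADQ. Series b alone gave 3 in AV, 4 in AA, 0 in ADQ and 2 in the older rats. The library total as a term gave 1, 1, 0 and 1, and the first component as a term 3, 3, 4 and 4. Leaving out each rat in turn gave 14 to 22 in AV, 21 to 27 in AA, 14 to 25 in ADQ and 21 to 29 in the older rats. Adjusted counts of lower genes moved more: AA had 10, 4 without a filter and 2 with the compared groups alone, and AV had 0, and 17 without libraries under 12000000 reads.

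Between the older groups, AA against ADQ gave 1 gene with upper quartile scaling, scaling to the same total, the compared groups alone, the library total or the first component, and 2 in series a. AA against AV gave 1 with the compared groups alone, and ADQ against AV gave 2 in series a and 1 in series b. Leaving out each rat gave 0 to 1, 0 to 1 and 0 to 2 in AA against AV, ADQ against AV and AA against ADQ.

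The median change turned to 0.0389 for AV in series b and to 0.00195 for ADQ with the library total. With the first component it turned to 0.035 in AV, 0.0219 in AA, 0.0605 in ADQ and 0.0414 in the older rats. In series b Psmb5 turned to 0.078 and Psmb4 to 0.00373, and with the library total Psmd13 turned to 0.00543. With the first component Psmb1 turned to 0.0315, Psmd12 to 0.0231, Psma6 to 0.0767, Psma1 to 0.017, Psmc2 to 0.0663, Psmb5 to 0.0866, Psmd13 to 0.0363, Psmc4 to 0.00301, Psmb4 to 0.109, Psmd3 to 0.0198 and Psme3 to 0.0226. Of the 24 genes called in the older rats, 1 stayed past p with either term, Psmb11. The cause was not tested.

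The library total, the first component and the limit of 12000000 reads were chosen after seeing the data. The limit removed V10 and V11, young rats already known to be low in these genes. A further setting, without AV rats 4567 and 4572, was run once and was set aside, since the rats were picked by the genes' own levels. No paired analysis was possible because the rat names carry no number shared between groups. Depth per rat limits Psmb11 most.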
